A study of Mus musculus with 18 samples.

Results

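Murine bone marrow-derived macrophages were profiled by ATAC-seq, in which a transposase cuts accessible DNA and the reads in a region measure how open it is. The 96 regions described here are those that were more open after polyI:C, not after CpG, LPS or TNF, and in which prior polyI:C left little or no gain once LPS or TNF had followed. They are 96 of 53796 measured regions, or 0.178%. All cells were wild-type C57BL/6, from mice 6 to 12 weeks old, grown with M-CSF at 20 ng/mL and replated on day 7. Each of 9 groups received a first treatment for 4 h and a second for 4 h, and the 2-letter names give that order. MM had medium in both steps. MC, ML, MP and MT had medium first and then CpG (100 nM), LPS (1 ng/mL), polyI:C (1 µg/mL) or TNF (10 ng/mL). PL and PT had polyI:C first and then LPS or TNF, and CL and CT had CpG first and then LPS or TNF. There were 2 libraries per group and 18 in all. Nothing in the labels says that the 2 libraries of a group came from different animals or cultures, so a p-value here reflects library-to-library spread, which may be technical.

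PolyI:C is a synthetic double-stranded RNA sensed by TLR3 in endosomes and by RIG-I-like receptors in the cytosol, and it induces type I interferon. CpG DNA is sensed by TLR9, LPS by TLR4, and TNF by its own receptor. In macrophages, lineage factors such as PU.1 keep many enhancers open, while AP-1, NF-kB, IRF and STAT factors open others after a stimulus. Some stimulus-opened sites stay open after the stimulus is gone and others do not.

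The regions were chosen from group means of log2 CPM, a read count scaled to library depth on a log2 scale, on which a difference of 1 is 2-fold. The rule asked for MP minus MM of at least 0.8, for MC, ML and MT minus MM each below 0.4, and for PL minus ML and PT minus MT both below 0.3. MP minus MM reached 0.8 in 6642 regions, and 854 of these also met the limits for CpG, LPS and TNF. Of those 854, 635 kept a difference of at least 0.3 in both PL minus ML and PT minus MT, 123 kept it in 1 of them, and the 96 (11.2%) in neither. The values that chose the 96 are given below as descriptions, without tests.

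No group received polyI:C and then medium. Whether a region closed by itself after polyI:C or under the second stimulus therefore cannot be told apart. MP was measured at the end of the polyI:C step, and PL and PT 1 further 4 h step later. The 2 MP libraries agree within counting noise (chi-square per region 1.00, p = 0.279 over 53685 regions), so their mean was counted as 1 sample; in the 8 other groups the chi-square per region was 1.07 to 2.72. The 18 libraries held between 3141641 and 5986835 reads in the measured regions (median 4962629). The PT pair was the least alike, with a correlation of 0.919 across regions against 0.958 to 0.973 in the other groups. All 10 macrophage markers examined had a region within 1 kb of a gene end, at a median mean level of 4.93. Such a region was found at 9 of 38 markers of 6 other cell types, the highest being Kdr at 5.27, and none of the 96 regions was assigned to those markers.

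Annotated start windows of 9 genes share at least 25 bases with one of the 96 regions (Cd80, Cpeb3, F3, Kcnh4, Marchf5, Pml, Snn, Tmem140 and Trafd1). The windows are RefSeq sequences of GRCm38.p6, the build of the deposited positions, with 250 bases before the start and 25 from it on. These genes were picked by position, after their values were known. Of their 11 windows, 4 (36.4%) held at least 1 of 5 motifs searched on both strands. That share was 18.3% of all windows, 15.8% of those under any measured region and 45.0% of the 20 under the 635 regions that kept their gain. The Cpeb3 and both Marchf5 windows lie on the same region, and both Trafd1 windows on another, so some sequence is counted repeatedly. Sequence of the 96 regions outside these windows was not searched. The 4 windows with a match are shown here, with matches in capitals.
Tmem140: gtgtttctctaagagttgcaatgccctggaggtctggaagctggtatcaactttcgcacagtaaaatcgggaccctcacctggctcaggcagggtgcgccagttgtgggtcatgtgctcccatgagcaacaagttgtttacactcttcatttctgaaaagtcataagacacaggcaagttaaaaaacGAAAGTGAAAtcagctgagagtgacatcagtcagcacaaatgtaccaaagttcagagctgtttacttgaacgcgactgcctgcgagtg
F3: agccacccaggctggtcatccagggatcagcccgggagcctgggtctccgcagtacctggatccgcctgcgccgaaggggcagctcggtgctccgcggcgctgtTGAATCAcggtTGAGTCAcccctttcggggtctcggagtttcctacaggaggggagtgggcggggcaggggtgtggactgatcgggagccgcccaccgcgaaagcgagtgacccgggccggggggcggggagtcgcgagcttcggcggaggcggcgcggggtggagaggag
Cd80: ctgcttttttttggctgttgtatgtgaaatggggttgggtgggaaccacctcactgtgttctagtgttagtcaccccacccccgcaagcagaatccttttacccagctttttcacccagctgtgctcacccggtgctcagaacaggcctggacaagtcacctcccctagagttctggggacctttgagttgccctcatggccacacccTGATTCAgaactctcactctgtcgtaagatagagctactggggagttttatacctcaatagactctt
Pml: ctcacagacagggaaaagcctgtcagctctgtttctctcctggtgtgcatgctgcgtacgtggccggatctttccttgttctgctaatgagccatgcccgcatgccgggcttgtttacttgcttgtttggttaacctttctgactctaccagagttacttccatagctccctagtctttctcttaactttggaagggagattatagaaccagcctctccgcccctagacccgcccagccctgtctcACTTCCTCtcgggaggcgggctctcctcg

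The windows lie at chr6:34862896-34863170 (plus strand) for Tmem140, chr3:121723287-121723561 (plus) for F3, chr16:38458683-38458957 (plus) for Cd80 and chr9:58249762-58250036 (minus) for Pml, each printed 5′ to 3′ on the strand of the gene. Tmem140 held the interferon-stimulated response element, searched as GAAA, 2 free bases and GAAA, at base 188 of the window. The AP-1 motif was searched as TGANTCA, with any middle base. F3 matched it as TGAATCA at base 105 and TGAGTCA at base 116, and Cd80 as TGATTCA at base 209. Pml held the PU.1 motif GAGGAAGT at base 247, on the opposite strand, overlapping the start. The motifs do not overlap each other in these windows. The response element was in 1 of 11 windows (9.09%), in 3.19% of all 21262 windows and in 3.05% of the 9418 windows under any measured region. It was in 6 of the 20 windows (30.0%) under the 635 regions that kept their gain. AP-1 was in 18.2% of the 11 windows, 6.67% of all windows, 4.60% of those under any region and 20.0% of the 20. PU.1 was in 9.09%, 2.60%, 3.28% and 10.0%. Neither the STAT motif TTCNNNGAA nor the NF-kB motif, searched as GGGA, 1 free base and TTTCC, was found in the 11 windows, against 7.19% and 0.40% of all windows, and neither was found in the 20. The median GC content was 69.8% in the 11 windows, 56.0% in all windows, 61.5% in those under any region and 51.8% in the 20. With 11 windows these shares are descriptions, and a match is not evidence of binding.

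Across the 96 regions MP minus MM had a median of 0.93 and ran from 0.80 to 1.56. The median level in the libraries was 3.24 and 3.43 log2 CPM in MM, 4.23 and 4.32 in MP, 3.43 and 3.51 in PL, and 3.46 and 3.18 in PT. In reads, the median region held 41.5 in an MM library and 95 in an MP library, and the lowest count of any region in any library was 3. Both MP libraries were above both MM libraries in 96 of 96 regions, against 34.2% of all regions, and above all 16 other libraries in 94 of 96, against 5.95% of all regions. The rule fixed that direction. The 2 exceptions were the regions near H2-T3, a nonclassical MHC class I gene, and inside Slit1, an axon guidance ligand, where 2 and 4 other libraries lay above the lower MP library. By limma's test across all regions 88 of the 96 were called higher in MP at an adjusted p under 0.05, where 14.3% of all regions were, and nothing is read from that count because the same libraries chose the regions.

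**Figure D1:**
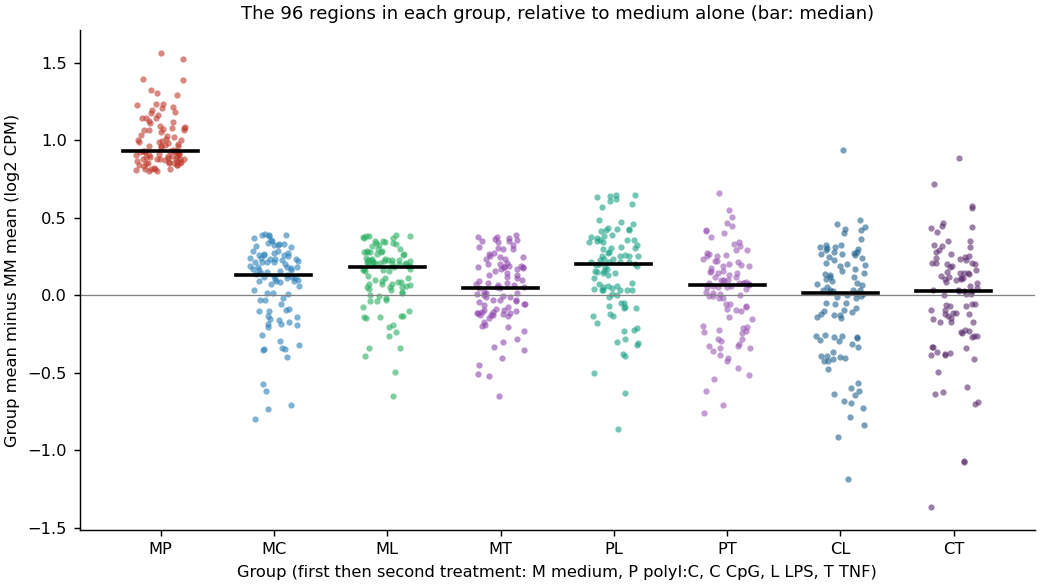
Difference of each group's mean from the MM mean (log2 CPM, vertical axis) for the 96 regions (points) in the 8 other groups, with the median as a bar. The MP points lie between 0.80 and 1.56, the medians of PL and PT are 0.20 and 0.06, and CL and CT reach the lowest values.

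After a second stimulus the regions were close to their level without prior polyI:C. PL minus ML had a median of 0.07 and PT minus MT of 0.05, and in 79 of 96 regions both lay within 0.3 of 0. PL minus MM had a median of 0.20 and PT minus MM of 0.06. The rule also fixed that PL and PT were below MP in every region. PL was below MP in all 96, with a median PL minus MP of -0.83, and so was PT, with a median PT minus MP of -0.90; the ranges were -1.77 to -0.23 and -1.83 to -0.37. The 96 did not form a separate group: in the plot of the 854 regions they are the low end of one continuous cloud. Just inside the limit for polyI:C were regions at Clic4 (0.80), Pxn (0.80) and Foxp1 (0.81), and just outside it regions at Slco5a1 (0.799), Igtp (0.796) and Mlkl (0.795). Just inside the limit for PL minus ML were Daam1 (0.298), Ehd2 (0.297) and H2-T23 (0.294), and just outside were Laptm5 (0.302), Ch25h (0.309) and Ifna1 (0.312). For PT minus MT, Oasl1 (0.286) and Pacs2 (0.284) lay inside and Dtnb (0.310) outside. These margins are smaller than the median standard error of a difference between 2 such groups, 0.22. Without PT replicate 1 the rule chose 107 regions, 89 of them among the 96, and without PT replicate 2 it chose 83, of which 74 were among the 96.

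**Figure D2:**
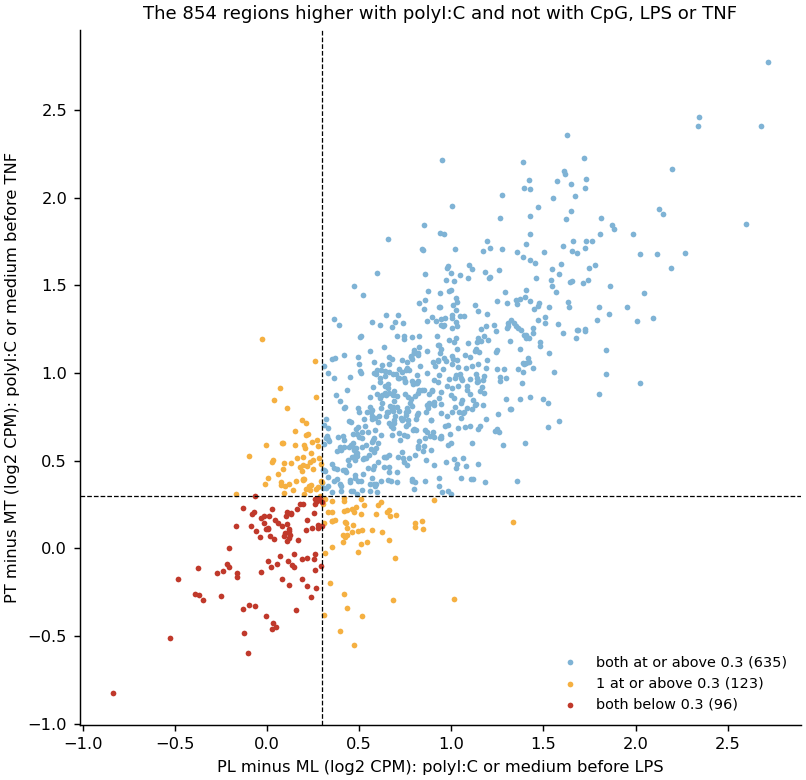
PL minus ML (horizontal) against PT minus MT (vertical), both in log2 CPM, for the 854 regions higher with polyI:C and not with CpG, LPS or TNF; dashed lines mark 0.3. The 96 regions described here (red) adjoin the 635 (blue) and 123 (orange) without a gap.

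In 2 regions both differences were below -0.3, so that accessibility after polyI:C and the second stimulus was under that of the second stimulus alone. One was near Tacc1, a coiled-coil protein of the centrosome and microtubules, at chr8:25304431-25304932. It measured 3.43 and 3.45 in MM, 4.28 and 4.31 in MP, 3.80 and 3.50 in ML, 2.96 and 2.67 in PL, 3.79 and 3.51 in MT, and 2.85 and 2.80 in PT. Both PL and both PT libraries were below both MM libraries there. The other lay inside Pag1, which encodes a membrane adaptor that recruits the kinase Csk, at chr3:9755009-9755510. It measured 2.72 and 2.97 in MM, 3.84 and 4.12 in MP, 2.93 and 3.17 in ML, 2.48 and 2.56 in PL, 2.90 and 3.15 in MT, and 2.44 and 2.59 in PT. Tacc1 and Pag1 were named after these values were seen.

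By place, 49 of the 96 regions (51.0%) lay inside a gene, 21 (21.9%) between genes, 20 (20.8%) within 1 kb of either end of a gene and 6 (6.25%) over 50 kb from one. Over all regions the shares were 43.0%, 22.9%, 24.9% and 9.21%. The 635 regions that kept their gain were within 1 kb of a gene end in 8.03% and over 50 kb away in 12.3%. Of the 68 regions whose gene has a start in the table used, 12 (17.6%) had their centre within 1 kb of it, against 26.9% of all regions and 8.02% of the 635. The 96 regions had a median mean level of 3.46, the 635 of 2.91 and all regions of 3.67. They lay on 19 of 20 chromosomes, none on X, and no 2 were within 100 kb of each other. The closest measured region to a member was a median of 3472.5 bp away and had MP minus MM of at least 0.8 in 22 of 96 cases, with a median of 0.31. Over all regions 12.3% reached 0.8, and the share among neighbours of other opened regions was not computed. The 90 regions with a gene within 50 kb were assigned to 89 genes. Daam1, a formin that nucleates actin filaments, was the only gene with 2, at 1.14 and 0.89 for MP minus MM and 128704 bp apart. No miRNA hairpin lay within 5 kb of any of the 96.

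The places had similar polyI:C gains, with median MP minus MM of 0.97 inside genes, 0.93 between genes, 0.94 near gene ends and 0.89 over 50 kb away. Inside genes, the largest were Syt17 (1.56; a synaptotagmin, a family of membrane trafficking proteins), Pacs2 (1.39; sorting between the endoplasmic reticulum and mitochondria), Lekr1 (1.31), Cd80 (1.23; the costimulatory ligand of CD28), Uaca (1.23; an apoptosis regulator), Osbpl8 (1.23; a lipid exchange protein of membrane contact sites), Socs7 (1.21; a suppressor of cytokine signalling) and Cib1 (1.21; a calcium and integrin binding protein). Between genes, Dnaic2 (1.52; a dynein chain of cilia) was highest. Near gene ends the largest were Bnip5 (1.39), Kcnh4 (1.32; a voltage-gated potassium channel), Iho1 (1.20; a meiotic recombination protein), Slc25a12 (1.09; the mitochondrial aspartate-glutamate carrier), Bbc3 (1.07; the proapoptotic protein PUMA) and F3 (1.02; tissue factor, which starts coagulation). One region over 50 kb from a gene, chr16:92955320-92955821, reached 1.29. Many of these were low: Syt17 measured 1.77 and 1.64 in MM and 3.30 and 3.24 in MP, on 16 and 8 reads against 51 and 41. Without either MM library in turn, MP minus MM at Syt17 was 1.5 to 1.63, and at Cd80 it was 0.80 without MM replicate 1 and 1.67 without MM replicate 2. With quantile normalization it was 0.72 at Iho1, under the limit of 0.8.

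The regions with the highest level were near Bach1, Rgs1, Slc25a12, Oasl1, Chmp4b and Atf3. The region upstream of Bach1, which encodes a repressor of heme oxygenase, measured 5.74 and 5.69 in MM and 6.68 and 6.66 in MP (302 and 163 reads against 564 and 466). It measured 5.75 in both PL libraries and 6.19 and 6.13 in PT, where MT alone gave 6.08 and 5.86. Slc25a12 and Chmp4b, a subunit of the membrane-remodelling ESCRT-III complex, differed between MP and MM by 1.09 and 0.91.

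Of 14 gene lists with 271 genes, the 96 regions held 1 gene each from 3: Oasl1 among interferon-stimulated genes, Atf3 among AP-1 and immediate early factors, and Cd80 among antigen presentation and costimulation. The interferon-stimulated list had 240 regions at 65 of its 74 genes, with 149 called higher and 5 lower in MP minus MM, where 14.3% of all regions were higher and 8.28% lower. Its median was 0.89, against -0.01 over all regions. Of its regions, 1 (0.417%) was among the 96 and 5 (2.08%) among the 635, against 0.178% and 1.18% of all regions. Lists for double-stranded RNA sensing (85 regions), NF-kB subunits and feedback (196) and inflammatory cytokines (164) held none of the 96. Since the 96 are 0.178% of all regions, nothing is read from their absence in lists of this size.

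The region at Oasl1, an interferon-induced relative of oligoadenylate synthetases, lies at chr5:114921791-114922292, centred 1198 bp upstream of the start. It measured 4.78 and 4.61 in MM, 5.66 and 5.70 in MP, 4.93 and 5.00 in MC, 4.97 and 5.05 in ML, 4.65 and 4.47 in MT, 5.23 and 5.36 in PL, 5.18 and 4.52 in PT, 4.85 and 5.02 in CL, and 4.76 and 4.91 in CT. The MP pair stood above every other library, and the PT libraries lay far apart. The next region, over the Oasl1 start, gained 3.12 with polyI:C and kept 1.55 in PL minus ML and 2.77 in PT minus MT, and it was also higher with CpG (1.93) and LPS (1.08). The 2 Oasl1 regions inside the gene gained 1.69 and 3.28.

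The region over an annotated Cd80 start, at chr16:38458623-38459124, lies inside the gene and over 1 kb from a gene end. Its level was lower and more variable. It measured 2.04 and 2.91 in MM, 3.54 and 3.87 in MP, 2.77 and 2.49 in MC, 2.93 and 2.44 in ML, 2.69 and 2.61 in MT, 3.28 and 2.61 in PL, 2.73 and 2.52 in PT, 2.45 and 2.49 in CL, and 2.09 and 2.51 in CT. The other 3 regions at Cd80 had MP minus MM of 0.09, 0.37 and -1.33, the first of them within 1 kb of a gene end. At Tmem140, a transmembrane protein gene whose window carries the response element shown above, the region measured 4.26 and 4.35 in MM, 5.26 and 5.19 in MP, 4.33 and 4.69 in PL, and 4.68 and 4.46 in PT. At Pml, the scaffold of PML nuclear bodies, it measured 2.90 and 3.78 in MM, 4.28 and 4.24 in MP, 3.11 and 3.79 in PL, and 3.38 and 2.86 in PT. The MM libraries at Pml were further apart than those at Tmem140. At F3, with the paired AP-1 matches, the region measured 3.33 and 3.23 in MM, 4.15 and 4.44 in MP, 3.21 and 2.56 in PL, and 2.68 and 3.32 in PT. At Trafd1, which encodes a TRAF-type zinc finger protein that limits innate immune signalling, it measured 4.52 and 4.43 in MM, 5.33 and 5.26 in MP, 4.77 and 4.62 in PL, and 4.57 and 4.38 in PT. In all 4 the MP pair was above the PL and PT pairs.

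Most of the 89 genes had other regions, 613 in all, and 123 of these (20.1%) reached 0.8 in MP minus MM, against 12.3% of all regions. Of the 123, 112 also passed 0.4 with CpG, LPS or TNF. Most opened regions anywhere did so, since of 6642 that reached 0.8 only 854 stayed below 0.4 with CpG, LPS and TNF. Of the 123, 75 kept at least 0.3 in both PL minus ML and PT minus MT. Another such opened region was present at 53 genes, and 6 genes had a single region. No share over all regions or genes was computed for the 75 or the 53. At H2-T23, the nonclassical MHC class I gene of Qa-1, the region 740 bp inside the start gained 0.96, with 0.29 left in PL minus ML and -0.10 in PT minus MT. The region over that start gained 1.48 and kept 0.78 and 0.95. At Snn the region at the start gained 0.92, while regions 2936 and 5404 bp upstream gained 3.32 and 2.31. At F3 the region 1696 bp upstream gained 1.60 and kept 0.57 and 0.32, and it also gained 1.5 with CpG. At Kcnh4 the region inside the gene gained 1.74 and kept 0.92 and 0.79. At Osbpl8 a region 69894 bp into the gene gained 3.80, and it kept 1.40 and 1.5.

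**Figure D3:**
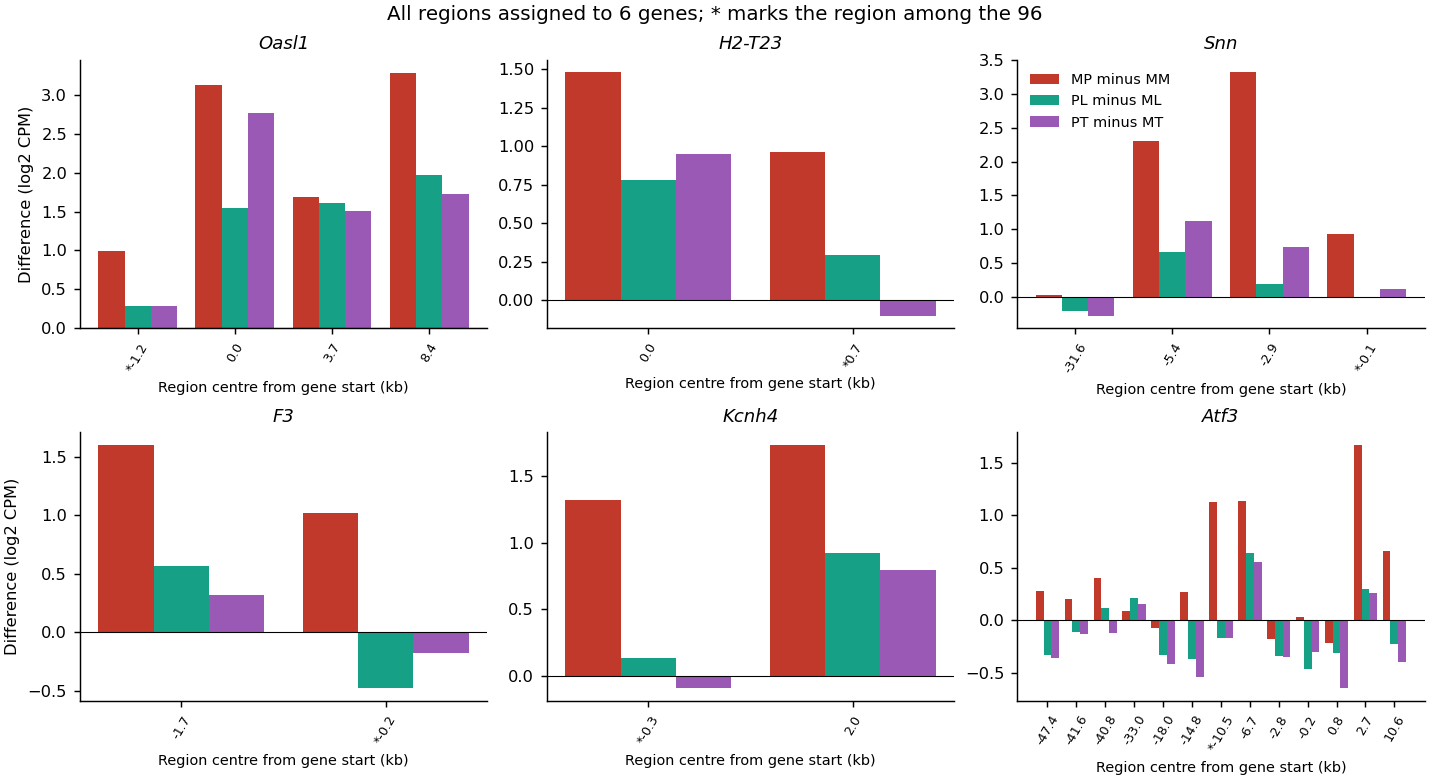
MP minus MM, PL minus ML and PT minus MT (bars, log2 CPM) at every region assigned to 6 genes, ordered by distance of the region centre from the gene start in kb; an asterisk marks the region among the 96. At Oasl1 the region over the start gained 3.12 and kept 1.55 and 2.77, beside 0.99, 0.29 and 0.29 at the marked one.

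The CpG-primed groups CL and CT took no part in choosing the regions, but ML and MT, with which they are compared, did. A limit on PL minus ML favours regions with a high ML, and such regions have a lower CL minus ML whatever CpG does; the same holds for MT. ML minus MM had a median of 0.19 in the 96, and MT minus MM of 0.05. The counts, medians and p-values of CL minus ML and CT minus MT in the 96 are therefore descriptions, not independent of the rule. Against MM, which the rule also used, CL had a median difference of 0.01 in the 96 and 0.01 in all regions, and CT of 0.03 and 0.01. CL minus ML had a median of -0.16, against 0.04 over all regions, and was below 0 in 69 of 96. By limma's test, adjusted over all regions, 1 of the 96 was called higher, where 9.95% of all regions were, and 6 were called lower, where 5.76% of all regions were. The shares of the 96 were 1.04% higher and 6.25% lower. Both CL libraries were above both ML libraries in 12.5% of the 96 and 34.3% of all regions, and below them in 36.5% and 27.3%. With quantile normalization 0 of the 96 were called higher and 16 lower, and with libraries shifted to one median 0 and 10. The number called over all regions moved too, up to 13584 across the alternatives against 8451 in the fit reported. By direction it was not counted in these settings, so the 16 and the 10 have no share over all regions beside them. Leaving out ML replicate 1 reduced the 6 lower calls to 1, and leaving out the second ML library reduced them to 3; leaving out either PT library gave 10. The 1 higher call was lost without any single CL or ML library.

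Before TNF, CT minus MT had a median of 0.01 in the 96 regions, which turned negative in several alternatives (-0.14 with quantile normalization), and 0.02 in all regions. By limma, 1 of the 96 was called higher, where 10.6% of all regions were, and 7 lower, where 5.65% of all regions were. The lower share was 7.29% and the higher 1.04%. Both CT libraries were above both MT libraries in 21.9% of the 96 and 30.2% of all regions, and below them in 30.2% and 26.2%. The 7 lower calls became 3 without CT replicate 2 or without MT replicate 2. The number called higher was 0 without CT replicate 2, 2 without CT replicate 1 (not the region reported, in Socs7), and 4 without PT replicate 1 or PT replicate 2. CL and CT themselves, the fully independent pair, differed by a median of -0.07, and limma called 0 of the 96 regions, where 0.242% of all regions were called. Of the 96, 5 had an unadjusted limma p under 0.05, a lower share than the 5771 of all 53796 regions. Voom called 1 of the 96. Across the alternatives the number called over all regions ran up to 1142, against 130 in the fit reported, so nothing is read from that call. The difference between CL minus ML and CT minus MT was likewise called in 0 of the 96 by limma, and in 0.245% of all regions. Here 5 of the 96 had an unadjusted limma p under 0.05. The count over all regions was not made, so nothing is read from the 5.

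**Figure D4:**
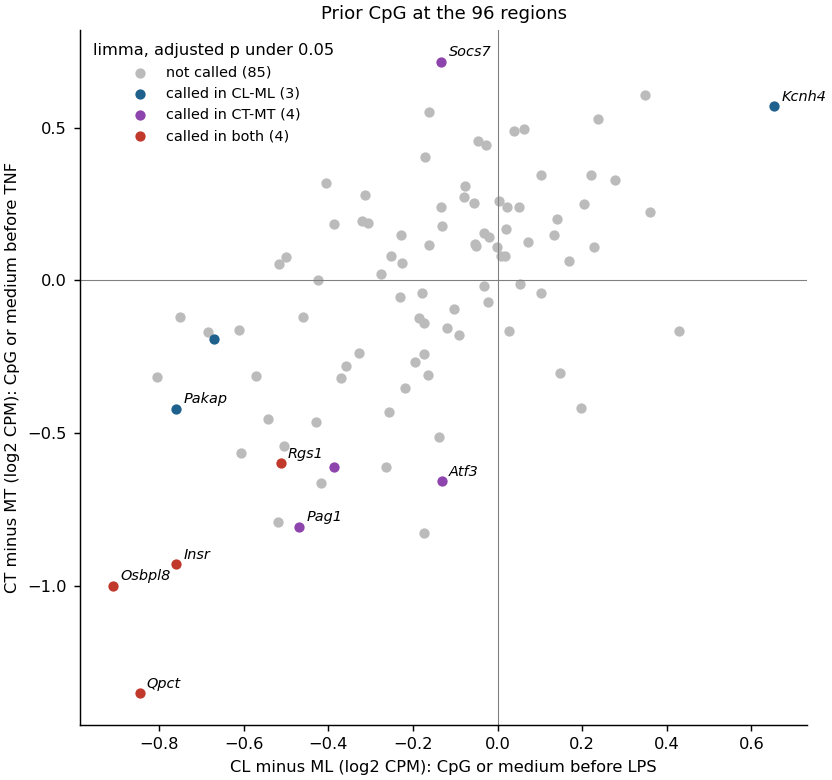
CL minus ML (horizontal) against CT minus MT (vertical), both in log2 CPM, at the 96 regions, coloured by limma call at an adjusted p under 0.05. The 4 regions called in both, at Osbpl8, Insr, Rgs1 and Qpct, lie lower left, and 85 regions were called in neither.

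At 4 of the 96 regions (4.17%), against 1.86% of all regions, CL minus ML and CT minus MT were both called lower. None was called higher in both, where 5.56% of all regions were. Because ML and MT helped to choose the regions, the calls and p-values given below are not independent of the rule. These 4 regions were near or in Osbpl8, Insr, Rgs1 and Qpct. With CpG alone, MC minus MM was 0.01 at Insr, -0.10 at Rgs1, -0.57 at Qpct and -0.62 at Osbpl8.

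Inside Insr, the insulin receptor gene, the region at chr8:3247067-3247568 measured 4.25 and 4.21 in MM, 5.36 and 5.23 in MP, 4.29 and 4.19 in MC, 4.36 and 4.16 in ML, 4.33 and 4.61 in MT, 4.4 and 4.35 in PL, 4.58 and 4.55 in PT, 3.47 and 3.54 in CL, and 3.63 and 3.46 in CT. All 4 CL and CT libraries were below the other 14. The differences were -0.76 ± 0.17 (SE) for CL minus ML (limma adjusted p = 0.0016) and -0.93 ± 0.17 for CT minus MT (limma adjusted p = 0.00011). The CL call was lost without ML replicate 1 (limma adjusted p = 0.052).

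Inside Osbpl8, the region at chr10:111252523-111253024 measured 3.23 and 3.49 in MM, 4.69 and 4.48 in MP, 2.58 and 2.90 in MC, 3.54 and 3.33 in ML, 3.52 and 3.79 in MT, 3.46 and 3.77 in PL, 3.77 and 4.05 in PT, 2.51 and 2.54 in CL, and 2.60 and 2.71 in CT. The CL libraries lay below both MC libraries, and the CT libraries within their range. The differences were -0.91 ± 0.22 (SE) for CL minus ML (limma adjusted p = 0.0035) and -1.0 ± 0.22 for CT minus MT (limma adjusted p = 0.0011). The CL call was lost without ML replicate 1 (limma adjusted p = 0.071).

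Near Rgs1, which encodes a GTPase-activating protein that dampens chemokine receptor signals, the region at chr1:144239162-144239663 measured 5.22 and 4.97 in MM, 6.14 and 6.12 in MP, 5.06 and 4.92 in MC, 5.36 and 5.28 in ML, 5.37 and 5.57 in MT, 5.55 and 5.6 in PL, 5.64 and 5.87 in PT, 4.77 and 4.84 in CL, and 4.98 and 4.76 in CT. The PL and PT pairs lay between the MM and MP pairs. The differences were -0.51 ± 0.14 (SE) for CL minus ML (limma adjusted p = 0.0089) and -0.60 ± 0.14 for CT minus MT (limma adjusted p = 0.0019). The CL call was lost without CL replicate 1 (limma adjusted p = 0.086) or ML replicate 1 (limma adjusted p = 0.10), and the CT call without CT replicate 2 (limma adjusted p = 0.062) or MT replicate 2 (limma adjusted p = 0.059).

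Beyond Qpct, whose enzyme forms pyroglutamate at protein N-termini, the region at chr17:79095510-79096011 measured 2.93 and 3.41 in MM, 4.17 and 4.23 in MP, 2.36 and 2.83 in MC, 2.74 and 2.92 in ML, 3.08 and 3.23 in MT, 2.96 and 2.76 in PL, 2.54 and 2.86 in PT, 2.38 and 1.59 in CL, and 1.95 and 1.66 in CT. The CL pair was the widest. The differences were -0.85 ± 0.27 (SE) for CL minus ML (limma adjusted p = 0.030) and -1.35 ± 0.27 for CT minus MT (limma adjusted p = 0.00049). The CL difference was -0.45 without CL replicate 2 and -1.24 without CL replicate 1. The CL call was lost without CL replicate 2 (limma adjusted p = 0.38), ML replicate 1 (limma adjusted p = 0.099) or ML replicate 2 (limma adjusted p = 0.18).

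Atf3 encodes a stress-induced bZIP factor that restrains inflammatory genes. Its region, 10452 bp upstream at chr1:191193535-191194036, measured 4.60 and 4.77 in MM, 5.96 and 5.66 in MP, 4.77 and 5.02 in MC, 4.65 and 5.16 in ML, 4.74 and 4.76 in MT, 4.73 and 4.75 in PL, 4.73 and 4.44 in PT, 4.89 and 4.65 in CL, and 4.34 and 3.84 in CT. The CT pair was lowest. CT minus MT was -0.66 ± 0.17 (SE; limma adjusted p = 0.0074), CL minus ML was -0.13 ± 0.17 (limma adjusted p = 0.66), and CL minus CT was 0.68 ± 0.17 (limma adjusted p = 0.083). CT minus MT was -0.41 without CT replicate 2 and -0.91 without CT replicate 1. The CT call was lost without CT replicate 2 (limma adjusted p = 0.23) or MT replicate 2 (limma adjusted p = 0.059).

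Called higher were Kcnh4 before LPS and Socs7 before TNF. At the Kcnh4 start, chr11:100759822-100760323, the region measured 3.17 and 2.71 in MM, 4.23 and 4.31 in MP, 3.34 and 3.01 in MC, 3.22 and 3.23 in ML, 3.37 and 3.15 in MT, 3.18 and 3.54 in PL, 3.35 and 2.97 in PT, 3.87 and 3.89 in CL, and 3.58 and 4.08 in CT. The CL and CT pairs stood above all libraries but MP. CL minus ML was 0.65 ± 0.23 (SE; limma adjusted p = 0.044) and CT minus MT was 0.57 ± 0.23 (limma adjusted p = 0.080). The CL call was lost in 7 of 26 alternatives, to a limma adjusted p of up to 0.18. Inside Socs7, at chr11:97363349-97363850, the region measured 4.55 and 4.70 in MP, 2.73 and 3.19 in MT, 3.65 and 3.70 in CT, 3.52 and 3.36 in ML, and 3.17 and 3.43 in CL. MT itself was below medium there, with MT minus MM of -0.45 ± 0.21 (SE). Against that low MT, CT minus MT was 0.72 ± 0.21 (SE; limma adjusted p = 0.017). That call was lost without CT replicate 1 (limma adjusted p = 0.067), CT replicate 2 (limma adjusted p = 0.11) or MT replicate 1 (limma adjusted p = 0.23).

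**Figure D5:**
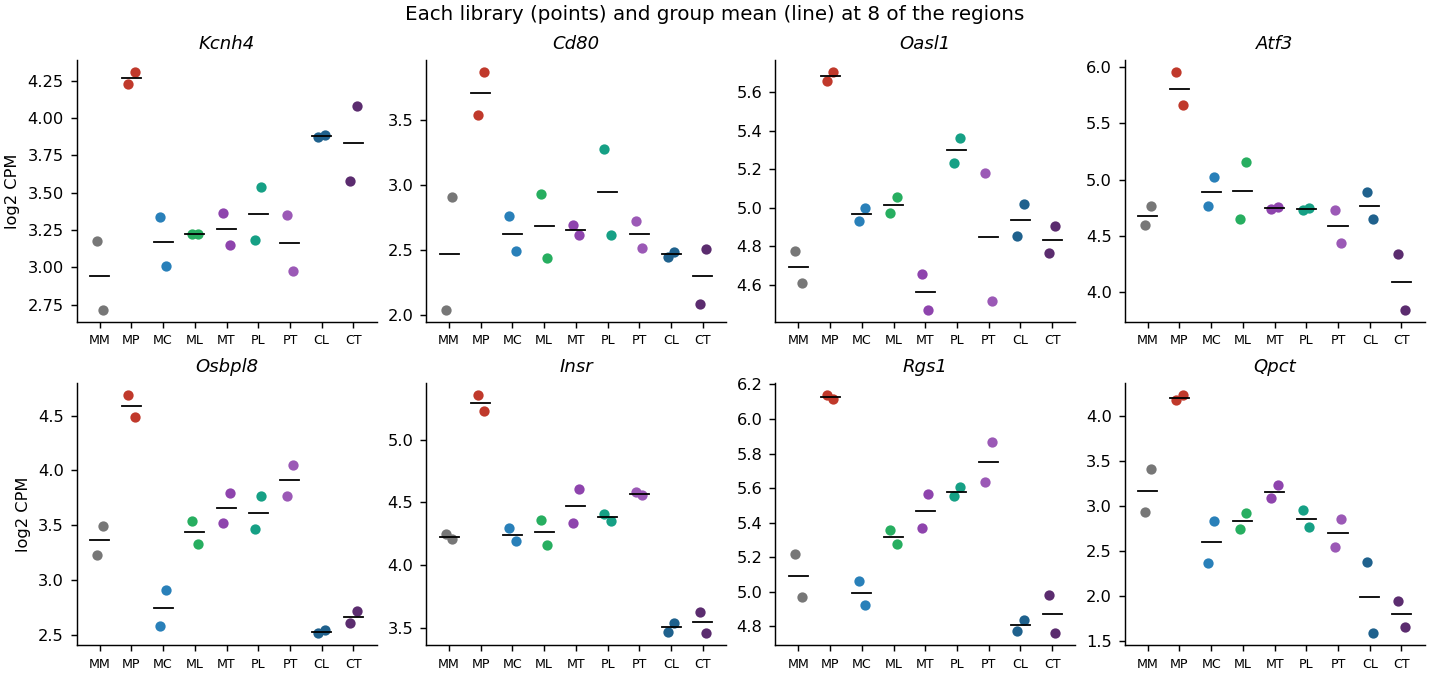
Level in each library (points, log2 CPM) and group mean (line) at 8 of the regions, by group. The MP pair is highest in all 8 panels. The CL and CT means are the lowest at Osbpl8, Insr, Rgs1 and Qpct, and also at Cd80, where CL is barely below MM.

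The other regions called lower were single-contrast calls. Before LPS they were a region in Pakap (-0.76 ± 0.25, SE; limma adjusted p = 0.033), where CL measured 1.97 and 2.85 and ML 3.04 and 3.31, and one over 50 kb from a gene at chr1:13513748-13514249 (-0.67 ± 0.20; limma adjusted p = 0.022). The Pakap difference was -0.32 without CL replicate 1 and -1.20 without CL replicate 2. The Pakap call was lost without CL replicate 1 (limma adjusted p = 0.54), ML replicate 1 (limma adjusted p = 0.080) or ML replicate 2 (limma adjusted p = 0.23), and the other without CL replicate 1 (limma adjusted p = 0.21) or ML replicate 2 (limma adjusted p = 0.22). Before TNF they were Pag1 (-0.81 ± 0.24, SE; limma adjusted p = 0.016) and chr8:10901026-10901527, over 50 kb from a gene (-0.61 ± 0.19; limma adjusted p = 0.021). The second was lost without any single CT or MT library (limma adjusted p up to 0.15), and Pag1 without CT replicate 1 (limma adjusted p = 0.10), CT replicate 2 (limma adjusted p = 0.060) or MT replicate 2 (limma adjusted p = 0.16). By place, the median CL minus ML was -0.04 near gene ends, -0.13 inside genes, -0.17 between genes and -0.48 in the 6 regions over 50 kb from a gene. CT minus MT had medians of 0.21, -0.01, -0.05 and -0.18 in the same order.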

How the data were processed

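ATAC-seq was measured in 18 libraries, 2 for each of 9 treatments. Per the submitters' processing notes, the tools were featureCounts, MACS3 3.0.0b1, Picard, SAMtools 1.9 and Bowtie2 2.2.5, with build mm10 (GRCm38); settings are not given in the sources used here. The authors deposited log2 CPM per region, and positions are as their region names give them, 501 bases from start to end. The values return whole reads within 0.01 in 100% of cases with a prior of 3 reads, which understates differences at low regions.

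Group means were fitted to all 53796 regions with limma 3.58.1 (R 4.3.3; group-means model, trended prior, Benjamini-Hochberg adjustment over all regions, threshold 0.05), with the MP mean as 1 sample and 8 residual degrees of freedom. No region was filtered. The fit was tested on simulated data. Voom (limma) on recovered reads, quantile normalization, median shifts, filters, MP as 2 samples, other rule limits, a replicate block and leaving out each library were alternatives. The difference between CL minus ML and CT minus MT was added after seeing the data. Genes are RefSeq GRCm38.p6 protein-coding genes within 50 kb; none of the regions' own genomic sequence was used, only RefSeq start windows. The members, lists and tests were chosen with earlier results of these data known.

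Named regions were the 12 with the largest MP minus MM, the 6 largest within 1 kb of a gene end, up to 3 per gene list, genes with most members, up to 5 called per direction and contrast, the 6 with the highest level and those next to each limit; others are said to be chosen later, as are the H2-T3, Slit1, Trafd1, Tmem140, Pml, Snn, H2-T23, Pag1, Pakap and chromosome 8 regions.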

Additional observations from a re-analysis of the deposited data

How the results depend on the processing

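Asking for MP minus MM of at least 1 chose 37 regions, and holding CpG, LPS and TNF below 0.3 chose 61; over the other rule limits and normalizations the number was up to 144 (quantile normalization, with 62 of the 96 among them), and leaving out 1 library gave 83 to 126, with 64 to 89 of the 96. For CL minus ML, called higher was 0 with quantile normalization, with libraries shifted to one median and with regions above the 25th percentile of level, and 0 to 1 without 1 library; called lower was 16 with quantile normalization, 10 with medians shifted, 10 with only the compared groups, and 1 to 10 without 1 library. For CT minus MT, called lower was 12 with quantile normalization and 3 to 9 without 1 library, and called higher was 3 with only the compared groups, with MP as 2 samples and with voom, and 0 to 4 without 1 library. For CL minus CT, called higher was 1 with only the compared groups and with voom, and 0 to 1 without 1 library. The cause of these moves was not tested. The fits that leave libraries out also hold fewer samples. No called difference changed sign. The median CT minus MT, 0.01, changed sign with quantile normalization (-0.14), with medians shifted (-0.04), and without CT replicate 2 (-0.04), MT replicate 1 (-0.01) or MT replicate 2 (-0.03). The medians of the 96 stayed between -0.27 and -0.12 for CL minus ML, -0.14 and 0.06 for CT minus MT, across 0, and -0.13 and -0.01 for CL minus CT.

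Over all regions the number called was 3359 to 13584 for CL minus ML (8451 in the fit reported), 4712 to 11297 for CT minus MT (8766) and 0 to 1142 for CL minus CT (130). The calls at Insr, Osbpl8 and Qpct in CT minus MT held in every alternative that tested them. Deviations of same-numbered libraries had correlations of -0.36 to 0.24 over 36 pairs of groups (median -0.00026), with no common sign. Replicate numbers were therefore not taken to pair libraries. With 2 libraries per group, a negative correlation here equals a positive one across numbers. Whether any groups were paired that way was not tested. With a replicate block 1 region was called higher and 6 lower in CL minus ML and 1 and 7 in CT minus MT. Assigning genes by the nearest gene end gave 80 of the 96 a gene, and a limit of 20 kb gave 83, against 90. Depth limits the low regions most, since the lowest count in the 96 was 3 reads.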
